A study of Mus musculus with 8 samples.

Results

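Small nucleolar RNAs and small Cajal body RNAs were followed in mouse E14 embryonic stem cells (ESCs) depleted of Hira, Ubn1 or Ubn2, which belong to the HIRA complex, a histone chaperone that places histone H3.3 on chromatin. All gene symbols that begin with Snora, Snord or Scarna and a number were taken, which gave 147 of the 55418 genes in the count tables. Of these, 40 are H/ACA RNAs (Snora), 98 are C/D RNAs (Snord) and 9 are Cajal body RNAs (Scarna). The study sequenced 8 libraries, 2 each of ESCs labelled Control, Hira_KD, Ubn1_KD and Ubn2_KD, all of 1 line grown without feeder cells in serum and leukaemia inhibitory factor. Depletion was by transient transfection of short hairpin RNA (shRNA) plasmids followed by puromycin selection, so each group is a selected population and not a clone. The labels give the Control cells as wild type and speak of the pSuper puro vector, while the study's methods give a luciferase shRNA as the control. No source says whether the 2 libraries of a group came from separate cultures, so p-values measure the spread between libraries, which may be technical.

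C/D RNAs guide the methylation of ribose in ribosomal RNA with the proteins Fbl, Nop56, Nop58 and Snu13. H/ACA RNAs guide the conversion of uridine to pseudouridine with Dkc1, Nhp2, Nop10 and Gar1. Cajal body RNAs use the same machinery on the small nuclear RNAs of the spliceosome. In mammals most of these RNAs are cut out of the introns of a host gene, often one for a ribosomal protein or a noncoding RNA whose spliced product is not translated, and have no poly(A) tail of their own. The libraries were made with an mRNA kit with inserts of approximately 300 bases, whereas the members had a median annotated length of 94 bases (range 64 to 414). Reads counted on a member can therefore come from the mature RNA, from unspliced or differently spliced host RNA, or from host exons, and these were not told apart.

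Of the 147 members, 144 matched 1 gene of the GENCODE M21 annotation of GRCm38. Snord80, Snora43 and Snora16a matched more than 1 gene and are given without a position. A host gene on the same strand held 137 members, of which 61 overlapped an annotated exon of that host and 76 lay within its introns. The 90 hosts comprised 24 ribosomal protein genes, 43 other protein coding genes and 23 genes of another annotated class, called noncoding hosts here. The last class includes Cct6a, the gene of a chaperonin subunit, which GENCODE M21 lists as a processed transcript and which holds Snora15, the member with the most counts. A C/D RNA carries a C box near its 5′ end and a D box near its 3′ end, and an H/ACA RNA carries the letters ACA close to its 3′ end. Among the 97 C/D sequences, TGATGA was found within the first 20 bases in 70.1% and CTGA within the last 20 bases in 97.9%. In the 38 H/ACA sequences, ACA was found within the last 9 bases in 94.7%. The same search found ACA in 7.22% of the C/D sequences and TGATGA in 0 of the 38 H/ACA sequences.

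The following sequences, taken from the GENCODE M21 transcripts and written 5′ to 3′ as DNA, belong to members that differed between groups, with each box that the search found in capitals. Snord96a, Snord2, Snord78, Snord12, Snord22, Snora61 and Snora3 were lower in Hira_KD libraries, Snord16a and Snora31 were higher in Ubn2_KD libraries, and Snord89 was lower in Ubn2_KD libraries.
Snord96a: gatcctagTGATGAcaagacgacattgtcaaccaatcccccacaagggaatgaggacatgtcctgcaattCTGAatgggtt
Snord2: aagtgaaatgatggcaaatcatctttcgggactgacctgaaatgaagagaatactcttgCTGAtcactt
Snord78: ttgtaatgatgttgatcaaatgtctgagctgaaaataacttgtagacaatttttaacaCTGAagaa
Snord12: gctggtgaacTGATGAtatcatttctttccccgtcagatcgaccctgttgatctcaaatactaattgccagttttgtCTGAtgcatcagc
Snord22: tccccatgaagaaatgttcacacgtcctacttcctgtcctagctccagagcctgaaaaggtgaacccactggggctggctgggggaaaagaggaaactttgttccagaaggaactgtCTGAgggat
Snord16a: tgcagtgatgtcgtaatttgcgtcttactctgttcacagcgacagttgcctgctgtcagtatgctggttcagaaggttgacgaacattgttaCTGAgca
Snord89: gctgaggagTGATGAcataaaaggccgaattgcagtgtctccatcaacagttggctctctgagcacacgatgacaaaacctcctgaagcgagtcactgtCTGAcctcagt
Snora61: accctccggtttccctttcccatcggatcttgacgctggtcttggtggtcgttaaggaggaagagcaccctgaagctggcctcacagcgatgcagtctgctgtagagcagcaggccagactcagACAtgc
Snora3: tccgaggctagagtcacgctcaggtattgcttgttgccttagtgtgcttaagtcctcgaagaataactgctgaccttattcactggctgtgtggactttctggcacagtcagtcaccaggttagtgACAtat
Snora31: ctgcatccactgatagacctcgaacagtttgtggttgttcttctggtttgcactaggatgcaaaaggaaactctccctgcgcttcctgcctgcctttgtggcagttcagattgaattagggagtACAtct
On GRCm38, Snord96a lies at chr11:48802032-48802112 on the plus strand, Snord2 at chr16:23108953-23109021 (+), Snord78 at chr1:161036984-161037049 (+) and Snord12 at chr2:167065276-167065365 (+). Snord22 lies at chr19:8725866-8725991 (+), Snord16a at chr9:64175423-64175521 (+) and Snord89 at chr1:39548745-39548854 (-). The H/ACA RNAs lie at chr4:132310240-132310369 (+, Snora61), chr7:109520120-109520251 (+, Snora3) and chr14:75847905-75848034 (+, Snora31). Of these 10, Snora31 and Snord89 lie in an intron, of Tpt1 and of Gm15832, and share no base with an annotated exon of another gene. The other 8 lie wholly within annotated exons of other genes. For 41 of the 61 members that overlap a host exon, the annotation gives that exon in retained intron transcripts alone, which keep sequence that is spliced out of the main form, and for 3 in a protein coding transcript.

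Library totals ranged from 19710040 to 32706053 counts on genes. Members took between 0.0238% and 0.0315% of these counts, so single members rest on few counts. The targeted genes were lower in their own libraries: Hira was 89.4 and 97.6 CPM in Control and 10.0 and 10.4 in Hira_KD, Ubn1 fell from 53.0 and 44.1 to 23.8 in both Ubn1_KD libraries, and Ubn2 fell from 50.1 and 51.7 to 30.1 and 24.6. CPM are counts relative to library size, scaled here by trimmed mean of M values (TMM). The stem cell markers Pou5f1, Sox2, Nanog, Zfp42 and Esrrb summed to between 3302 and 3624 CPM in each library, the primitive endoderm markers Gata4, Gata6 and Sox17 to between 4.06 and 8.92 CPM, and the fibroblast genes Col1a1, Col1a2 and Thy1 to between 16.3 and 31.7 CPM, with the highest values, 31.7 and 29.3 CPM, in Hira_KD, whose part in the results was not tested. None of the 11 markers was at 0 in any library.

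Replicate 2 of Ubn2_KD and, less so, replicate 2 of Hira_KD stood apart in some of the other RNAs that carry no poly(A) tail. Rmrp, the RNA of the RNase MRP enzyme, was at 14.4 CPM in Ubn2_KD replicate 2 and 3.94 CPM in Hira_KD replicate 2, against 0.126 to 0.390 CPM in the other 6 libraries. Rn7sk, which holds back a transcription elongation factor, was at 12.5 and 6.02 CPM in these libraries and between 0.422 and 2.05 CPM elsewhere. Rpph1, the RNA of RNase P, was at 28.6 CPM in Ubn2_KD replicate 2 and between 1.01 and 8.72 CPM in the other libraries, with 4.36 CPM in Hira_KD replicate 2. Rnu7 and Terc did not separate in this way. Rnu7 was at 1.27 CPM in Ubn2_KD replicate 2, 0.522 CPM in Hira_KD replicate 2 and 1.23 CPM in Ubn1_KD replicate 1. Terc was at 0.965 and 1.07 CPM in Ubn2_KD and 0.908 and 1.04 CPM in Hira_KD. Values without replicate 2 of Ubn2_KD or of Hira_KD are given beside the results below. The part of this difference between libraries in the results was otherwise not tested.

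A count was found for 125 of the 147 members, and 22 had none in any library. All 17 Snord116 copies, which lie in introns of the imprinted noncoding gene Snhg14, were at 0, as were Snord61, Snord90, Snord118, Snord123 and Snora35. The Snord116 copies are between 94.7% and 100% identical to each other, with 91 of 136 pairs at 100%, so that a read may match several of them, and how such reads were counted is not given. A count of 0 therefore sets no limit on their level. For the other 5, a count of 0 allows between 0.0908 CPM (Hira_KD replicate 1) and 0.153 CPM (Ubn2_KD replicate 2), a limit that covers counting error only. Snord118, known as U8, takes part in the maturation of the large ribosomal subunit RNAs. The 56 members that lie wholly within exons of other genes had a median of 353 counts over the 8 libraries (lowest 43), and the 74 that share no base with such exons had a median of 40.5.

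Per kilobase of annotated length, the highest H/ACA levels averaged over the 8 libraries included those of Snora15 (293 CPM per kb, host Cct6a), Snora65 (125, Rpl12), Snora61 (54.4, Snhg12) and Snora73b (39.1, Snhg3). Snora73b is a copy of U17, which is needed to cut the ribosomal RNA precursor. The highest C/D levels were those of Snord96a (234 CPM per kb, host Rack1), Snord78 (106, Gas5), Snord33 (104, Rpl13a), Snord2 (91.2, Eif4a2) and Snord104 (88.8, no host on its strand). The Cajal body RNAs were far below, led by Scarna9 (3.14 CPM per kb), Scarna8 (2.10), Scarna10 (1.22), Scarna13 (0.968) and Scarna17 (0.759). Set against the host gene's own level per kilobase of exon, the 57 tested members that overlap a host exon stood at a median of 24.0% of their host (range 0.455% to 284%), and the 28 tested intronic members at a median of 5.17% (range 0.664% to 221%). Members above their host included Snora61 at 284% of Snhg12, Snord12 at 225% of Zfas1, Snord78 at 186% of Gas5 and Snord22 at 156% of Snhg1, all in noncoding hosts. Snord16a stood at 2.51% of Rpl4, Snora31 at 3.4% of Tpt1 and Snora3 at 3.45% of Rpl27a.

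Summed over the type, H/ACA RNAs were lower in both Hira_KD libraries than in the other 6. The sums were 146 and 134 CPM in Control, 100 and 108 CPM in Hira_KD, 124 and 125 CPM in Ubn1_KD, and 127 and 134 CPM in Ubn2_KD. C/D RNAs summed to 177 and 164 CPM in Control, 123 and 132 CPM in Hira_KD, 161 and 147 CPM in Ubn1_KD, and 158 and 163 CPM in Ubn2_KD. The Hira_KD means, 104 ± 5.79 CPM for H/ACA and 128 ± 6.15 CPM for C/D (SD, n = 2), were 74.5% and 75.0% of the Control means. These shares moved little without the member with the most counts of each type. Without Snora15 the H/ACA mean of Hira_KD was 73.1% of Control, and without Snord96a the C/D mean was 77.5%. With library totals alone as the scaling, the shares with all members kept were 80.3% and 80.8%. Ubn1_KD stood at 88.9% and 90.3% of Control and Ubn2_KD at 93.1% and 94.4%, for H/ACA and C/D respectively. In bulk RNA such a difference cannot be told apart from a change in the share of cells that hold more of these RNAs.

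**Figure D1:**
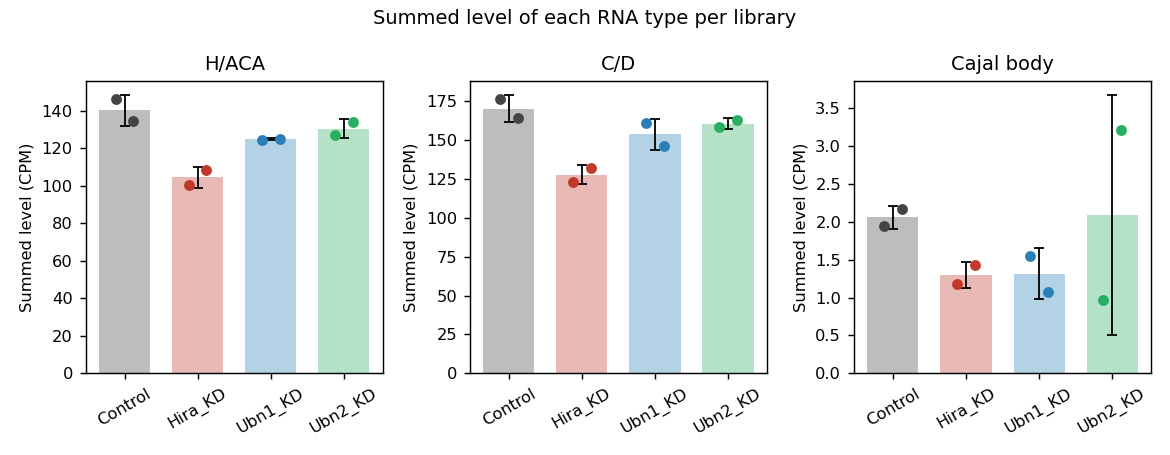
Summed TMM-scaled level (CPM, vertical axis) of H/ACA, C/D and Cajal body RNAs in the 4 groups. Points are libraries, bars the mean of 2 libraries and error bars the SD; both Hira_KD points lie below all other points for H/ACA and C/D RNAs.

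The Cajal body sum lay between 0.965 and 3.21 CPM and rested on at most 79 counts per RNA over the 8 libraries. The highest value, in Ubn2_KD replicate 2, came with Scarna2, which had 32 counts there and 0 to 4 in every other library. This is the library in which Rmrp, Rn7sk and Rpph1 were highest. Scarna10, in Ncapd2, was tested against Control in all 3 depletions and passed in none. Its level was 0.584 and 0.660 CPM in Control, 0.333 and 0.285 CPM in Hira_KD, 0.365 and 0.269 CPM in Ubn1_KD, and 0.276 and 0.408 CPM in Ubn2_KD. Every depleted library was thus below both Control libraries, on 6 to 21 counts each, with log2 fold changes of -1.01 ± 0.56, -0.99 ± 0.59 and -0.88 ± 0.58 (SE) and edgeR adjusted p of 0.169, 0.344 and 0.243. Scarna13 was tested in Ubn1_KD alone (log2 fold change -0.08 ± 0.66, edgeR adjusted p = 0.964).

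To ask which members changed with each depletion, counts were compared with edgeR's quasi-likelihood test, and a gene was called where its Benjamini-Hochberg adjusted p over all tested genes was under 0.05 and its fold change over 1.5. In Hira_KD against Control, 88 members had enough counts to be tested. Of these, 14 were lower and 0 were higher, which is 15.9% of the tested members lower. Among all tested genes 5.40% were called lower and 10.8% higher. The log2 fold change was below 0 for 79 of the 88 tested members, with a median of -0.38, against a median of 0.01 over all 19035 tested genes. H/ACA RNAs (31 tested, median -0.40, 4 lower) and C/D RNAs (56 tested, median -0.36, 10 lower) had similar medians. No member was called higher in edgeR or DESeq2, and 20 of the 88 had an unadjusted edgeR p under 0.05 in either direction. Over all tested genes 8354 of 19035 had such a p, a larger share. DESeq2 called 7 members lower, of which 6 were among the 14. Fewer members were lower when any 1 of the Control or Hira_KD libraries was left out. Such fits have less power for any gene, and the matching counts over all genes were not made. The median log2 fold change of tested members was -0.35 without Control replicate 1 and -0.50 without Control replicate 2. Without Hira_KD replicate 2, 11 members were lower, 8 of them among the 14, and the median log2 fold change was -0.58. With library totals alone as the scaling, every log2 fold change of this comparison shifts upwards by 0.11, the median of tested members becomes -0.27 and 72 of 88 stay below 0.

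**Figure D2:**
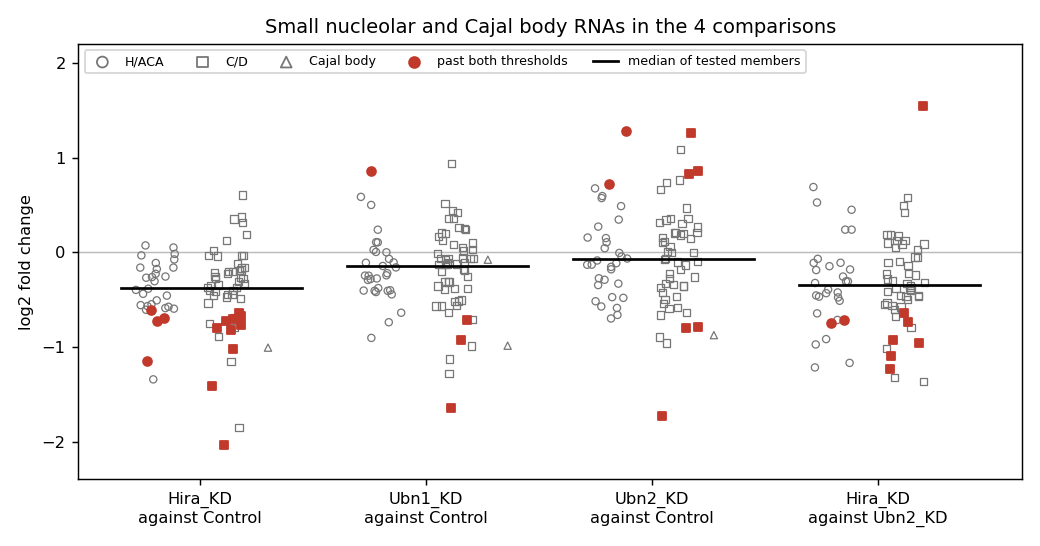
log2 fold change (vertical axis) of each tested member in the 4 comparisons, by RNA type (marker shape); filled red markers passed both thresholds and black lines mark the median of tested members. The medians are -0.38 in Hira_KD, -0.15 in Ubn1_KD and -0.08 in Ubn2_KD against Control, and -0.35 in Hira_KD against Ubn2_KD.

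Snord96a, the most abundant C/D RNA per kilobase, had the smallest adjusted p. It was at 25.1 and 22.0 CPM in Control, 13.6 and 14.5 CPM in Hira_KD, 20.6 and 18.8 CPM in Ubn1_KD, and 18.3 and 18.96 CPM in Ubn2_KD. The Hira_KD libraries were the lowest of the 8, and the fall of 1.70-fold (log2 fold change -0.76 ± 0.13, edgeR adjusted p = 9.12e-05) was called in all 10 alternative settings. Its host Rack1, a scaffold protein of the small ribosomal subunit, had a log2 fold change of -0.31 ± 0.07.

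Snord2 was at 7.74 and 7.58 CPM in Control and 4.15 and 4.79 CPM in Hira_KD (log2 fold change -0.80 ± 0.20, edgeR adjusted p = 0.00337). Snora81, which lies in the same host Eif4a2, was at 5.45 and 5.12 CPM in Control and 3.45 and 3.13 CPM in Hira_KD (-0.69 ± 0.23, adjusted p = 0.0229). Both fell beyond the change of Eif4a2, a helicase of translation initiation, whose log2 fold change was -0.24 ± 0.09. The call of Snora81 was lost without Hira_KD replicate 2 or either Control library (adjusted p between 0.0593 and 0.0941), and that of Snord2 held without any 1 library. In Ubn2_KD the order was the other way: Eif4a2 fell, with a log2 fold change of -0.78 ± 0.07 (edgeR adjusted p = 4.47e-08), while Snord2 had a log2 fold change of -0.43 and Snora81 of -0.15, neither past the test.

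Snhg12, a noncoding gene, hosts Snora61, Snord99 and Snora44. Snora61 was at 8.96 and 8.30 CPM in Control and 5.03 and 5.50 CPM in Hira_KD (log2 fold change -0.73 ± 0.19, edgeR adjusted p = 0.00427). Snord99 was at 4.87 and 4.31 CPM in Control and 3.00 and 2.14 CPM in Hira_KD (-0.82 ± 0.26, adjusted p = 0.0159). Both fell, Snora44 had a log2 fold change of -0.55 that did not pass, and Snhg12 itself was at -0.39 ± 0.10. Snora61 kept its call in all 10 alternatives and Snord99 in 7, losing it without Control replicate 1 or Hira_KD replicate 2 (edgeR adjusted p of 0.0735 and 0.0871).

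Snord78 was the one member lower in all 3 depletions. Its levels were 10.9 and 8.93 CPM in Control, 6.05 and 6.78 CPM in Hira_KD, 6.34 and 5.68 CPM in Ubn1_KD, and 6.21 and 5.20 CPM in Ubn2_KD. All 6 depleted libraries lay below both Control libraries, with log2 fold changes of -0.64 ± 0.18, -0.72 ± 0.19 and -0.79 ± 0.18 and edgeR adjusted p of 0.00886, 0.0143 and 0.00165. The 3 comparisons share the 2 Control libraries. Without Control replicate 1, the higher of the pair, the calls in Hira_KD (log2 fold change -0.50, edgeR adjusted p = 0.0965) and Ubn1_KD (-0.57, adjusted p = 0.237) were lost, as was that in Hira_KD without Hira_KD replicate 1 (-0.56, under the fold threshold). The call in Ubn2_KD held in all 10 alternatives. Gas5, the noncoding host, was at 0.02, -0.15 and -0.22, and Snord47, the other tested member placed in it here, at -0.16, -0.11 and 0.15. Snord80, given without a position, was not assigned a host.

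Snord12 was at 6.96 and 6.48 CPM in Control and 4.15 and 4.03 CPM in Hira_KD (log2 fold change -0.73 ± 0.21, edgeR adjusted p = 0.00888), called in all 10 alternatives. Snord22, known as U22 and needed for the small ribosomal subunit RNA, was at 6.67 and 6.79 CPM in Control and 4.0 and 4.60 CPM in Hira_KD (-0.67 ± 0.20, adjusted p = 0.0143). In both cases the noncoding host had a log2 fold change above 0, of 0.23 ± 0.11 for Zfas1 and 0.46 ± 0.10 for Snhg1, neither of them past the fold threshold. Snora3, in the ribosomal protein gene Rpl27a, was at 2.73 and 2.96 CPM in Control and 1.24 and 1.38 CPM in Hira_KD, a fall of 2.21-fold (-1.14 ± 0.31, adjusted p = 0.00694). Without Control replicate 2 the adjusted p was 0.0546 for Snora3 and 0.0639 for Snord22, and without Hira_KD replicate 1 it was 0.0743 for Snord22.

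Snord1c had the largest fitted change of the tested members, from 0.682 and 0.692 CPM in Control to 0.182 and 0.142 CPM in Hira_KD (log2 fold change -2.04 ± 0.62, edgeR adjusted p = 0.0136). It rests on 14 and 22 counts in Control and on 6 and 3 in Hira_KD, it is 97.4% identical to Snord1b, and its call was lost without any 1 of the 4 libraries. Snord87, intronic in Snhg6, was at 1.46 and 1.07 CPM in Control, 0.575 and 0.332 CPM in Hira_KD, and 0.365 and 0.422 CPM in Ubn1_KD. It was lower in both depletions, with log2 fold changes of -1.41 ± 0.47 and -1.65 ± 0.50 (edgeR adjusted p of 0.0248 and 0.0363), while Snhg6 was at 0.07 and -0.24. The call in Ubn1_KD was lost without any 1 library, and that in Hira_KD without Control replicate 1 or Hira_KD replicate 2 (edgeR adjusted p of 0.168 and 0.135). Snora68 (log2 fold change -0.61), Snord45c (-0.70) and Snord37 (-1.02) completed the 14, with calls kept in 1, 0 and 1 of the 4 fits without a library. Among the most abundant members, Snora65 (-0.57 ± 0.13, edgeR adjusted p = 0.00216) and Snora15 (-0.39 ± 0.10, adjusted p = 0.00425) passed the p threshold but not the fold threshold, and Snora73b (-0.40), Snord33 (-0.46) and Snord104 (-0.03) passed neither.

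**Figure D3:**
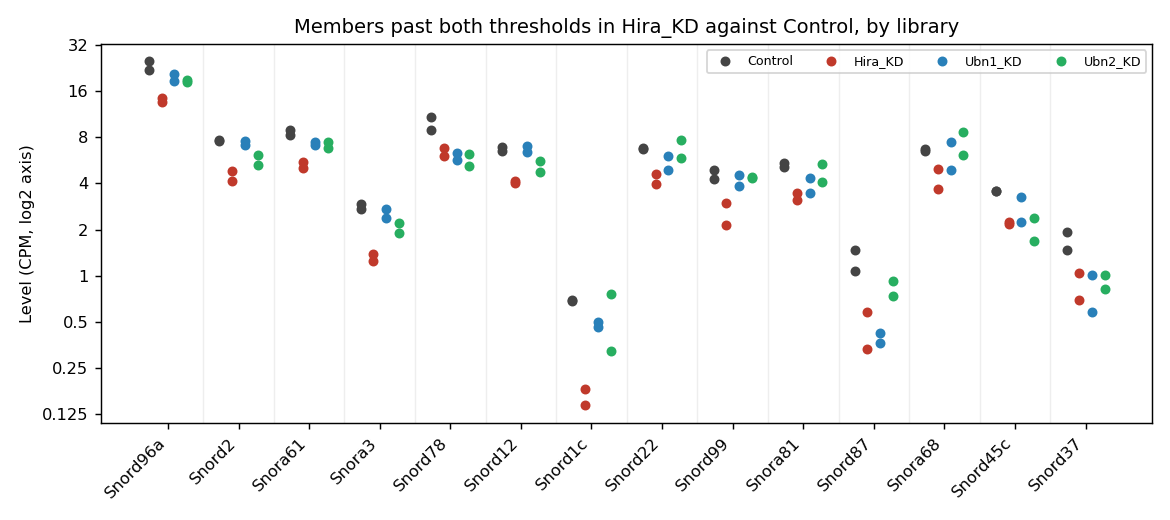
Level (CPM, log2 vertical axis) in each of the 8 libraries of the 14 members called lower in Hira_KD against Control, ordered by adjusted p and coloured by group. For each member both Hira_KD points lie below both Control points, which the choice of these members favours. All Ubn1_KD and Ubn2_KD points lie below Control as well for Snord78, Snord96a, Snord2, Snora61, Snord45c, Snord87 and Snord37. The choice used the same Control libraries, which favours this too. The matching share over all genes was not counted, so it is not read as a shared fall.

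Members were then set beside their hosts. In Hira_KD, 82 tested members had a tested host, the median log2 fold change was -0.38 for members and -0.26 for their hosts, and 55 of the 82 members lay below their host. Across these pairs of genes Pearson's r was 0.04; several members share a host, pairs share the same libraries, and host values are far more precise than those of members. Of the 14 members lower in Hira_KD, 4 had a host with a log2 fold change above 0 and none had a host that passed both thresholds. The 55 tested members that overlap a host exon had a median of -0.46 and 12 calls (21.8%), and the 27 intronic members a median of -0.27 and 2 calls (7.41%), Snord87 and Snord37, beside 5.40% of all tested genes. The difference between these classes was not tested, and they differ in depth as given above. All 24 ribosomal protein hosts had a log2 fold change below 0 in Hira_KD (range -0.49 to -0.01), and 0 passed the fold threshold; with library totals alone as the scaling, 23 of the 24 stay below 0. This was not particular to Hira_KD: all 24 were also below 0 in Ubn2_KD, with a median of -0.42 against -0.32 in Hira_KD, and 22 of 24 in Ubn1_KD. In Ubn2_KD 17 of the 27 tested members in these hosts were above 0, against 6 of 28 in Hira_KD. Over the 3 host classes in Hira_KD, 2 of 28 tested members in ribosomal protein genes (7.14%, near the 5.40% of all tested genes), 5 of 27 in other protein coding genes (18.5%) and 7 of 27 in noncoding hosts (25.9%) were lower.

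**Figure D4:**
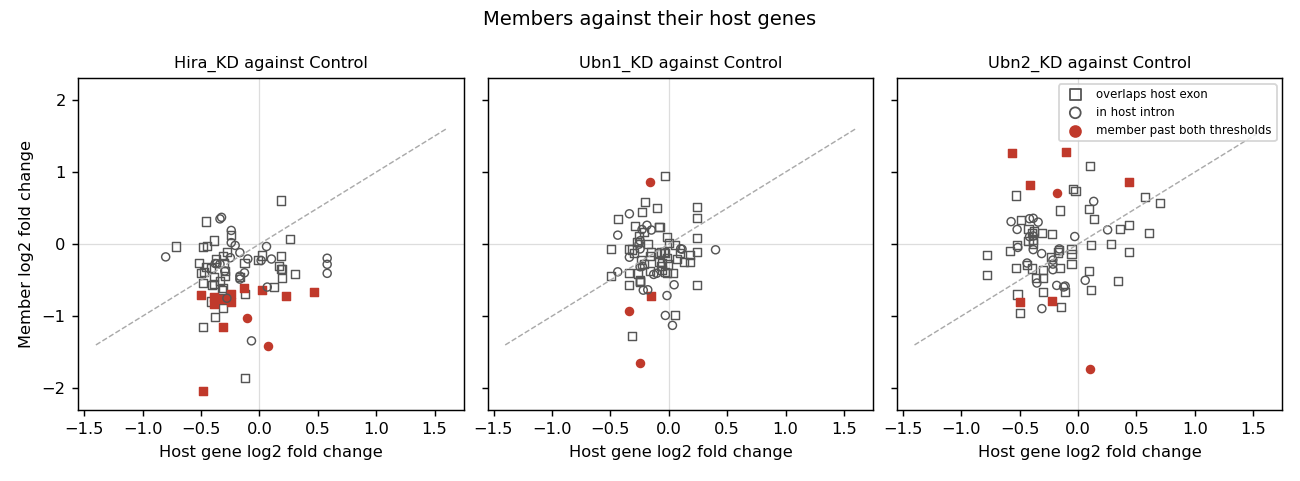
Member log2 fold change (vertical axis) against host gene log2 fold change (horizontal axis) in the 3 depletions against Control; squares overlap a host exon, circles lie in an intron, filled red markers are members past both thresholds, and the dashed line marks equal change. Members spread over a wider range than their hosts, and r across pairs is 0.04 in Hira_KD, 0.05 in Ubn1_KD and 0.16 in Ubn2_KD.

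In Ubn1_KD against Control, 89 members were tested, of which 3 were lower (3.37%) and 1 was higher (1.12%). The shares over all genes were 1.56% lower and 1.53% higher. An unadjusted edgeR p under 0.05 was found for 4026 of 18373 genes and 10 of the 89 members. The median log2 fold change of tested members was -0.15, and 63 of 89 were below 0. Apart from Snord78 and Snord87, Snord32a was lower, at 3.26 and 3.18 CPM in Control and 1.78 and 1.61 CPM in Ubn1_KD (log2 fold change -0.93 ± 0.29, edgeR adjusted p = 0.0472). Snord32a lies in an intron of Rpl13a beside Snord33, Snord34 and Snord35a, which had log2 fold changes of -0.07, 0.42 and -0.18. Its call held without Ubn1_KD replicate 1 and was lost without each other library (edgeR adjusted p between 0.13 and 0.214). DESeq2 called 0 members here in either direction, edgeR gave 10 an unadjusted p under 0.05, and without Control replicate 1 edgeR called 0 as well.

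Snora31 was the member higher in Ubn1_KD, and it was also higher in Ubn2_KD. It was at 2.48 and 2.45 CPM in Control, 2.18 and 2.80 CPM in Hira_KD, 4.33 and 4.65 CPM in Ubn1_KD, and 4.23 and 3.87 CPM in Ubn2_KD. All 4 libraries of Ubn1_KD and Ubn2_KD lay above all 4 of Control and Hira_KD. The log2 fold change was 0.86 ± 0.25 in Ubn1_KD (edgeR adjusted p = 0.0305) and 0.72 ± 0.25 in Ubn2_KD (adjusted p = 0.0251), with 1 of 4 fits without a library keeping the call in each, namely those without Ubn1_KD replicate 1 and without Ubn2_KD replicate 2. Its host Tpt1, whose introns hold it, had log2 fold changes of -0.16 ± 0.10 and -0.18 ± 0.07.

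In Ubn2_KD against Control, 87 members were tested, of which 5 were higher (5.75%) and 3 were lower (3.45%). Over all genes 9.59% were higher and 8.75% lower. The median log2 fold change was -0.08, with 50 of 87 below 0. Snord16a had the smallest adjusted p among members. It was at 2.19 and 1.98 CPM in Control, 2.09 and 3.23 CPM in Hira_KD, 2.33 and 2.61 CPM in Ubn1_KD, and 5.29 and 4.69 CPM in Ubn2_KD. The Ubn2_KD libraries were the highest of the 8, and the rise of 2.40-fold (log2 fold change 1.26 ± 0.24, edgeR adjusted p = 0.000316) was called in all 10 alternatives, DESeq2 among them (adjusted p = 0.00316). Its host, the ribosomal protein gene Rpl4, had a log2 fold change of -0.57 ± 0.06.

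Snord42b, in Rpl23a, was at 1.90 and 1.76 CPM in Control and 2.57 and 3.93 CPM in Ubn2_KD (log2 fold change 0.83 ± 0.29, edgeR adjusted p = 0.0303), beside -0.42 ± 0.07 for its host. Snord14e, a copy of U14 that takes part in small subunit RNA processing, was at 2.19 and 1.51 CPM in Control and 3.77 and 2.80 CPM in Ubn2_KD (0.86 ± 0.30, adjusted p = 0.0254). Its host Hspa8, a chaperone, was at 0.44 ± 0.06, and the other copies there, Snord14c and Snord14d, were at -0.10 and 0.27. The calls of Snord42b and Snord14e were lost without Control replicate 2 (edgeR adjusted p of 0.091 and 0.196), that of Snord42b without Ubn2_KD replicate 2 (0.339) and that of Snord14e without Ubn2_KD replicate 1 (0.217). Snora75, in Ncl, rose on 8 and 15 counts in Control and 18 and 26 in Ubn2_KD (log2 fold change 1.28 ± 0.50, edgeR adjusted p = 0.0453), a call that was lost without any 1 library.

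Snord89, intronic in the noncoding gene Gm15832, was lower in Ubn2_KD. It was at 1.31 and 1.45 CPM in Control, 1.39 and 0.996 CPM in Hira_KD, 0.912 and 0.960 CPM in Ubn1_KD, and 0.276 and 0.561 CPM in Ubn2_KD. The Ubn2_KD libraries were the lowest of the 8, on 6 and 11 counts, and the fall was 3.33-fold (log2 fold change -1.74 ± 0.48, edgeR adjusted p = 0.0068). Without Control replicate 2 or Ubn2_KD replicate 1 its adjusted p was 0.0568 and 0.0992. Snord45c, in Rabggtb, was lower in both Hira_KD and Ubn2_KD, at 3.55 and 3.58 CPM in Control, 2.24 and 2.18 CPM in Hira_KD and 2.39 and 1.68 CPM in Ubn2_KD. Its call in Ubn2_KD was lost without Control replicate 2 or Ubn2_KD replicate 2 (edgeR adjusted p of 0.0631 and 0.176). Rabggtb had a log2 fold change of -0.50 in each of these depletions. Without Ubn2_KD replicate 2, in which Rmrp and Rn7sk were high, 4 members were higher, 3 of them among the 5, and 2 were lower, both among the 3. Without Control replicate 2, 1 member was higher. DESeq2 called 1 member higher, Snord16a, and 1 lower, Snord78.

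**Figure D5:**
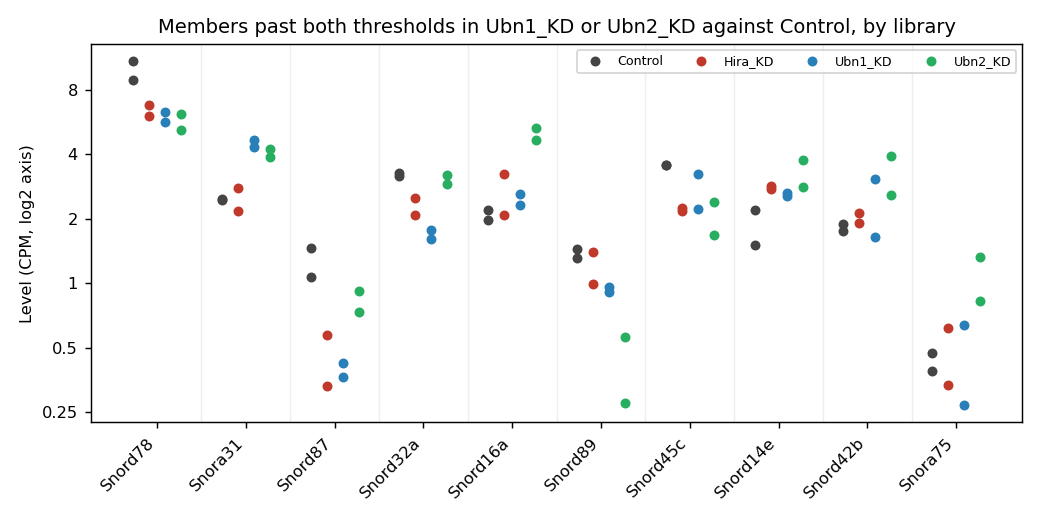
Level (CPM, log2 vertical axis) in each of the 8 libraries of the members called in Ubn1_KD or Ubn2_KD against Control, coloured by group. Snora31 is high in the 4 libraries of Ubn1_KD and Ubn2_KD, Snord16a in both Ubn2_KD libraries, and Snord89 is lowest in both Ubn2_KD libraries.

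Across the 3 depletions, 16 members were lower in at least 1 and 5 were higher in at least 1. Hira_KD shared Snord78 and Snord87 with Ubn1_KD and Snord78 and Snord45c with Ubn2_KD, which is 2 of its 14 in each case and 2 of 3 of the other list each time. The comparisons share the Control libraries, so these counts are not independent. The matching overlap over all genes was not counted, so the sharing is not read as particular to the members. A direct test of Hira_KD against Ubn2_KD needs no Control library. Of 83 members tested, 8 were lower in Hira_KD (9.64%) and 1 was higher (1.20%). The shares over all genes were 5.61% lower and 12.0% higher. The median log2 fold change was -0.35, and 64 of 83 were below 0. Snord69 (log2 fold change -1.24 ± 0.42), Snord57 (-1.09 ± 0.40), Snord35b (-0.96 ± 0.36), Snord16a (-0.93 ± 0.26), Snora68 (-0.74 ± 0.23), Snord99 (-0.73 ± 0.26), Snora31 (-0.71 ± 0.26) and Snord22 (-0.65 ± 0.22) were lower in Hira_KD, with edgeR adjusted p between 0.0129 and 0.0485.

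Snord89 was the one member higher in Hira_KD than in Ubn2_KD (log2 fold change 1.55 ± 0.50, edgeR adjusted p = 0.0251). Snord57, which lies in Nop56, the gene for a C/D core protein, was at 0.817 and 0.759 CPM in Hira_KD and 1.43 and 1.99 CPM in Ubn2_KD, but its Control values of 1.17 and 0.503 CPM spread over a wider range than those of Hira_KD. DESeq2 called 2 of the 8, Snord16a and Snora68, and 0 higher, where edgeR gave 22 of 83 members an unadjusted p under 0.05. Over all tested genes edgeR gave 8427 of 18563 such a p, a larger share. Without Ubn2_KD replicate 2, the library high in Rmrp, 2 members were lower, of which 1 was among the 8, and without Hira_KD replicate 1, 3 were. Without Hira_KD replicate 2, 10 were lower, 5 of them among the 8. Each of the 9 calls was lost in at least 2 of the 4 fits that left out 1 library.

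Transcripts of the genes for the proteins that bind these RNAs had greater depth. In Hira_KD the C/D core proteins had log2 fold changes of -0.38 (Fbl, the methyltransferase), -0.45 (Nop56), -0.38 (Nop58) and -0.48 (Snu13), each with an edgeR adjusted p under 0.05, and 0 of 4 passed the fold threshold in edgeR or DESeq2. Of the H/ACA core proteins 2 of 4 were called lower, where 5.40% of all tested genes were. Nop10 was at 123 and 125 CPM in Control and 70.6 and 84.8 CPM in Hira_KD (log2 fold change -0.69 ± 0.09, edgeR adjusted p = 3.06e-06). Nhp2 was at 231 and 213 CPM in Control and 141 and 155 CPM in Hira_KD (-0.60 ± 0.08, adjusted p = 5.41e-06). Dkc1, the pseudouridine synthase, was at -0.23 (edgeR adjusted p = 0.0358) and Gar1 at 0.23 (edgeR adjusted p = 0.0372), neither past the fold threshold. Ruvbl2, an ATPase of the assembly machinery, was the 1 of 10 assembly factors called lower (-0.63 ± 0.07, edgeR adjusted p = 1.81e-06), against 5.40% of all tested genes. Of the 10, 9 had a log2 fold change below 0, and 9 had an unadjusted edgeR p under 0.05 in either direction. Of 8 Cajal body and processing genes 0 passed in either tool, with 3 at an unadjusted edgeR p under 0.05. Over all 19035 tested genes, 9301 were below 0 and 8354 had an unadjusted edgeR p under 0.05. Leaving out 1 library moved Nop10, Nhp2 and Ruvbl2 to log2 fold changes no closer to 0 than -0.54, at times under the fold threshold.

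In Ubn2_KD, Gar1 rose from 57.4 and 52.5 CPM in Control to 87.4 and 79.2 CPM (log2 fold change 0.60 ± 0.08, edgeR adjusted p = 5.78e-06). Wrap53, which brings Cajal body RNAs to that body, rose from 21.1 and 21.6 CPM to 32.1 and 35.8 CPM (0.67 ± 0.11, adjusted p = 4.64e-05). It was the 1 of 8 Cajal body and processing genes that passed (12.5%), near the 9.59% of all tested genes called higher. The other 7 core proteins had log2 fold changes between -0.33 and 0.10, and 0 of 10 assembly factors passed in either tool. Of these 10, 3 had an unadjusted edgeR p under 0.05, against 8560 of all 18219 tested genes. Gar1 stood at 0.54 without Control replicate 2 and at 0.53 without Ubn2_KD replicate 1, under the fold threshold. In Ubn1_KD 0 genes of these 4 lists passed in edgeR or DESeq2. Of their 26 genes 6 had an unadjusted edgeR p under 0.05, against 4026 of all 18373 tested genes. Between Hira_KD and Ubn2_KD 0 genes of these lists passed in either tool, with Nhp2 at -0.55 and Nop56 at -0.53. Of the 26 genes 18 had an unadjusted edgeR p under 0.05, against 8427 of all 18563 tested genes.

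Of the 16 genes named Gas5 or Snhg, 12 hold a member and 1, Snhg11, is protein coding in the annotation. Of these genes 0 of 16 tested passed in Hira_KD and 0 of 15 in Ubn1_KD with edgeR or DESeq2 (6 and 3 at an unadjusted edgeR p under 0.05). Over all tested genes, 8354 of 19035 in Hira_KD and 4026 of 18373 in Ubn1_KD had such a p. In Ubn2_KD 1 of 15 passed in each direction (6.67%), below the 9.59% higher and 8.75% lower of all tested genes. In Ubn2_KD Snhg15 rose (log2 fold change 0.70 ± 0.12, edgeR adjusted p = 6.37e-05) and Snhg18 fell (-1.26 ± 0.40, adjusted p = 0.0155), the first at 0.56 and the second at an adjusted p of 0.187 without Control replicate 2. Of 27 other small RNA genes only 4 or 5 were tested in each comparison. Rn7sk was called higher in Hira_KD (1.54 ± 0.55, edgeR adjusted p = 0.035) and Ubn2_KD (2.53 ± 0.63, adjusted p = 0.00305), but its Control values of 2.05 and 0.503 CPM overlapped those of replicate 1 of both depletions, at 1.27 and 1.24 CPM. Without replicate 2 of the depletion it was at 0.07 in Hira_KD and 0.05 in Ubn2_KD. Among 1175 genes whose symbols begin with Mir and a number, 1159 of them annotated as microRNAs, 10 of 189 tested were higher (5.29%, against 10.8% of all genes) and 7 lower (3.7%, against 5.40%) in Hira_KD. In Ubn1_KD 0 of 179 were higher and 1 was lower, and in Ubn2_KD 15 of 176 were higher (8.52%, against 9.59%) and 12 lower (6.82%, against 8.75%). These shares lie below those of all genes. These reads, from inserts longer than a microRNA, cannot be told apart from reads of host transcripts.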

How the data were processed

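Total RNA from 8 ESC libraries had been made into libraries with an mRNA kit and sequenced in pairs. The authors used Trim Galore, STAR (GRCm38) and featureCounts, and the deposited values are unnormalized counts. The 3 tables, each with 55418 genes, share the Control columns (0 differing values). Versions, strand setting and the treatment of reads that match several genes are not given in the sources used here. Among members with counts, 7 pairs are at least 80% identical, as are all 136 pairs of Snord116 copies. Such pairs, and members and the exons that overlap them, could exchange reads.

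Low genes were removed with filterByExpr, libraries scaled by TMM, and 2 groups at a time tested with edgeR 4.0.16 quasi-likelihood F tests (R 4.3.3), with Benjamini-Hochberg adjustment over all tested genes. A call required both adjusted p below 0.05 and more than 1.5-fold change. The study's own methods used DESeq2, here 1.42.0 as an alternative. The other alternatives were DESeq2 size factors, no filter, a minimum of 10 counts per library and a joint fit of the 8 libraries. A block for replicate number and each library left out were used as well. Library totals alone served as a further scaling of sums and log2 fold changes. The code was tested on simulated data. Host genes, positions and sequences came from GENCODE M21. A host contains the member on the same strand.

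Members and lists were chosen with earlier results of these data known. Genes were named by rule: called members (up to 10 per comparison by adjusted p), the 5 most abundant per type, tested Cajal body RNAs, their hosts, the 8 core proteins, up to 3 called genes per list and comparison, and the targeted genes. Other members named were chosen after their values were seen.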

Additional observations from a re-analysis of the deposited data

Results flagged for a closer look

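The effects of Hira and Ubn2 depletion differed for 9 members in the direct edgeR test of Hira_KD against Ubn2_KD (Benjamini-Hochberg adjusted p under 0.05 and fold change over 1.5). As log2 fold changes of Hira_KD over Ubn2_KD, these were Snord69 (-1.24), Snord57 (-1.09), Snord35b (-0.96), Snord16a (-0.93), Snora68 (-0.74), Snord99 (-0.73), Snora31 (-0.71), Snord22 (-0.65) and Snord89 (1.55). Of the 83 tested members 9.64% were lower and 1.20% higher in Hira_KD, against 5.61% and 12.0% of all tested genes. As given above, each of the 9 calls was lost in some of the fits that left out a library. Among the other genes, the same test gave Snhg14, the host of the Snord116 copies, at -0.67 and Rpph1 at -2.24. The Rpph1 value rests on Ubn2_KD replicate 2, and without that library it is given below. For microRNA genes it gave Mir410 (-1.46), Mir3063 (-1.10), Mir3062 (-0.98), Mir675 (-0.93), Mir1906-1 (-0.60) and Mir6914 (1.81). Mir142hg, a lincRNA in the annotation and not a microRNA gene, was at 2.81, on 16 and 32 counts in Hira_KD and 2 and 3 in Ubn2_KD. No group had enough libraries for a test of single outlying libraries.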

How the results depend on the processing

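With DESeq2 the members called lower numbered 7 in Hira_KD, 0 in Ubn1_KD and 1 in Ubn2_KD against Control and 2 in Hira_KD against Ubn2_KD, and those called higher 0 in Ubn1_KD, 1 in Ubn2_KD and 0 in Hira_KD against Ubn2_KD. With at least 10 counts in every library, 0 members were higher in Hira_KD against Ubn2_KD, since Snord89 was no longer tested. Leaving out 1 library at a time gave 7 to 11 lower members in Hira_KD, 0 to 3 lower and 0 to 1 higher in Ubn1_KD, 2 to 4 lower and 1 to 6 higher in Ubn2_KD, and 2 to 10 lower and 0 to 1 higher in Hira_KD against Ubn2_KD. A lone library in such a fit is assumed to vary like the other group. Libraries with the same replicate number deviated little together (correlation of deviations from the group means between -0.052 and 0.067 over 19264 genes). Whether such libraries share a batch was not tested. With the replicate block 15 members were lower in Hira_KD, 3 in Ubn1_KD, 3 in Ubn2_KD and 6 in Hira_KD against Ubn2_KD. Without Ubn2_KD replicate 2, Rpph1 turned from -2.24 to 1.63 in Hira_KD against Ubn2_KD (-3.21 without Ubn2_KD replicate 1). Of 70 single gene calls, 28 held under every alternative, and 1 of the alternative values reversed. Where a call was lost, the cause was not tested. The summed H/ACA level of Ubn1_KD was 123 CPM with library totals alone, against 125 CPM with TMM. A host was found for 138 members on either strand and 137 on the same strand. Depth limits the Cajal body RNAs, none of which had 10 counts in every library.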
